A study of Mus musculus with 51 samples.

Results

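Loss of Bmal1 and loss of Vhl were compared singly and together in mouse muscle, and the question here was where the double knockout departed from the sum of the 2 single knockouts. For each gene the departure was the double knockout effect minus the Bmal1 knockout effect minus the Vhl knockout effect. Each effect was a log2 fold change against the floxed controls of its own line, so no animal entered more than 1 of the 3 effects. All genes were members: of 48321 symbols in the count table, 13093 passed the filter on low counts and were tested. The comparison used 32 of the 51 libraries of the series, those of batch 2, each from the gastrocnemius of 1 animal on high-fat diet. They fell into 6 groups: 8 controls labelled Bmal1fx/fx and 4 Bmal1KO, 6 controls labelled Vhlfx/fx and 4 VhlKO, and 6 controls labelled Bmal1fx/fx;Vhlfx/fx and 4 Bmal1KO;VhlKO. The knockouts are described as specific to skeletal muscle. None of the sources used here states the promoter that drives Cre, the exons deleted, or the sex, age and harvest time of the animals.

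BMAL1 pairs with CLOCK, and the pair binds E-box sequences to drive clock genes and many metabolic genes of muscle. VHL is part of a ubiquitin ligase that tags the oxygen-regulated subunits of hypoxia-inducible factor (HIF); without it HIF stays active and turns on genes of glycolysis, blood vessel growth and lower oxygen use. If both losses acted independently in proportion, their log2 effects would add, and the departure would be 0. A double knockout that went further than the sum in the same direction is called beyond the sum here (synergy). One that went the same way but less far is called short of the sum (buffering), and one with the other sign is called opposite to the sum.

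Library totals ran from 6.95 to 14.7 M counts, and log2 levels of animals of 1 group correlated at 0.965 to 0.984. Transcripts of the mitochondrial genome held 16.6 to 23.0% of counts in double knockouts and 22.3 to 38.8% in the other groups, and the scaling factors of the double knockouts were the highest, at 1.2 to 1.32. Levels below are in CPM, counts relative to the library total after this scaling (TMM). Arntl, the gene of BMAL1, was at 14.0, 9.32, 9.63 and 13.3 CPM in double knockouts, 9.99, 8.42, 8.16 and 10.5 CPM in Bmal1 knockouts and 15.4, 10.3, 11.7 and 11.7 CPM in Vhl knockouts. Vhl was at 3.84, 2.26, 2.70 and 1.64 CPM in double knockouts, 0.796, 2.69, 1.80 and 1.46 CPM in Vhl knockouts and 4.21 to 5.66 CPM in Bmal1 knockouts. Arntl controls ran from 8.60 to 12.9 CPM in the Bmal1 line and 13.8 to 17.8 CPM in the double line, and Vhl controls from 1.69 to 5.09 CPM in the Vhl line and 3.48 to 5.62 CPM in the double line, so both genes overlapped their own controls in part. Reads of this 3′ assay come from transcript ends, which need not lie in the deleted part, so these levels do not check the labels. Neither gene departed from the sum (Arntl 0.03 ± 0.22, adjusted p = 0.97; Vhl −0.25 ± 0.47, adjusted p = 0.84).

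Animal 2 of the Vhl knockouts stood apart from the other 3 and is reported with and without. Its score on the second principal component was −24.9 against −35.2 to −39.9 in the others, and its mitochondrial share was 27.1% against 32.8 to 34.7%. Its slow fibre genes, with Car3 left out, summed to 635 CPM, against 3940, 1260 and 3720 CPM in animals 1, 3 and 4. Counts of departures over all genes and over the lists described are given without this animal where they moved by more than 1 gene.

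Of 13093 genes, 281 were higher than the sum (2.15%) and 215 lower (1.64%), together 496 or 3.79%, in edgeR's quasi-likelihood test with Benjamini-Hochberg adjusted p under 0.05. The departure exceeded 2-fold in 156 of them, and 2199 genes had an unadjusted p under 0.05. For comparison, 35.4% of genes were called for the double knockout effect, 13.9% for Bmal1 loss and 37.2% for Vhl loss. The median departure over all genes was 0.01, which the scaling largely sets. With library totals alone as the scale the median was −0.06 and the split turned to 134 higher and 297 lower. Without animal 2 of the Vhl knockouts 972 of 13422 genes (7.24%) were called, 532 higher and 440 lower, and 487 of the 496 were among them. Without animal 3 of that group 300 were called, 178 higher and 122 lower. P-values measure the spread between animals, and in whole muscle fewer cells of a type and less RNA per cell cannot be told apart.

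Among these genes, those short of the sum were more numerous than those beyond it. The double knockout lay short of the sum in 292 (58.9%), opposite to it in 181 (36.5%) and beyond it in 23 (4.64%). Of all 13093 genes, called or not, 6113 (46.7%) lay short, 3378 opposite and 3602 beyond. The error of the sum enters the departure with reversed sign, so choosing genes by a large departure in itself favours the first 2 classes. Without animal 2 of the Vhl knockouts these were 526, 403 and 43, and without animal 3 they were 192, 96 and 12. The plot of the double knockout against the sum shows where these genes lie.

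**Figure D1:**
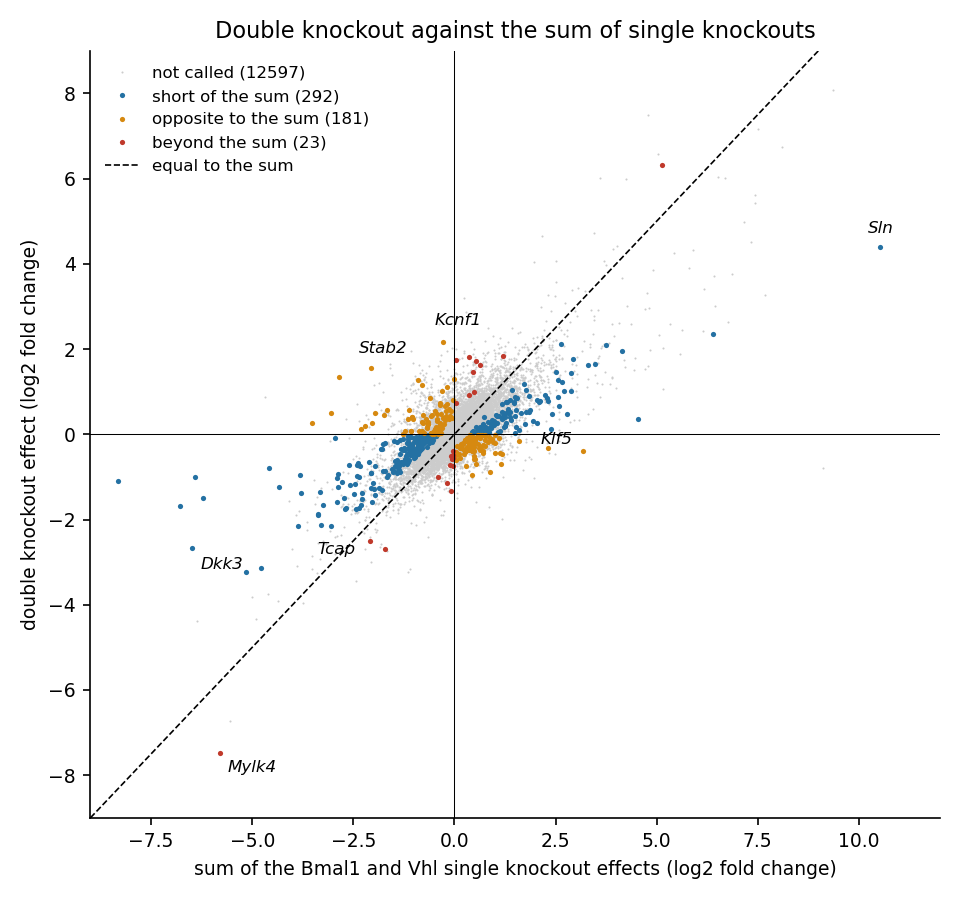
Double knockout effect (vertical axis) against the sum of the single knockout effects (horizontal axis), both log2 fold changes, for 13093 genes; coloured points are the 496 genes with a departure. Most coloured points lie between the dashed line of equality and 0, and Mylk4 lies below the line at the lower left, beyond the sum.

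The single effects of the 496 genes showed 3 main patterns. Both losses had moved 206 of them in the same direction, and in 131 of these the double knockout differed from neither single knockout. Only Vhl loss had moved 178, and in 125 of these the double knockout differed from the Vhl knockout but not from the Bmal1 knockout. Only Bmal1 loss had moved 44, and in 37 of these it differed from the Bmal1 knockout but not from the Vhl knockout. In the last 2 patterns the double knockout was called different from the knockout that had moved the gene. Where the other single effect is small, that difference is close to the departure by which the genes were chosen. These counts therefore largely follow from the choice. Neither single knockout had moved 47 genes, of which 41 were called in the double knockout, and 21 had been moved in opposite directions. Over all genes, which were not chosen by a departure, 16.7% were called for the difference between the double and the Bmal1 knockout effects. For the difference between the double and the Vhl knockout effects it was 8.56%.

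The smallest p among genes beyond the sum was that of Mylk4, which encodes a myosin light chain kinase of striated muscle (chromosome 13, 32700834 to 32783954; GENCODE M21, GRCm38). The double knockouts held 2.85, 3.35, 3.55 and 3.91 CPM. The Bmal1 knockouts held 43.3, 31.0, 41.2 and 37.3 CPM, and the Vhl knockouts 138, 209, 150 and 121 CPM. Controls ran from 576 to 687 CPM in the double line (median 607), 552 to 631 in the Bmal1 line (median 605) and 473 to 632 in the Vhl line (median 545). The 3 knockout groups thus formed separate steps below the controls with no overlap. The effects were −3.98 ± 0.11 for Bmal1, −1.82 ± 0.10 for Vhl and −7.47 ± 0.15 for both, a departure of −1.67 ± 0.19 (adjusted p = 6.2e-07). A level of 11.0 CPM would have met the sum of log2 effects, and the double knockouts were at 3.41 CPM on average.

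The promoter of Mylk4 is shown because the gene had the smallest p among those beyond the sum. It is the RefSeq sequence of GRCm38.p6 (minus strand, chr13:32783965-32784214), the 250 bases before the start, with motif letters in capitals. It held no CACGTG, the E-box letters bound by BMAL1 with CLOCK, no ACGTG, and 1 GCGTG, a core of the HIF response element, which begins 14 bases before the start.
Mylk4: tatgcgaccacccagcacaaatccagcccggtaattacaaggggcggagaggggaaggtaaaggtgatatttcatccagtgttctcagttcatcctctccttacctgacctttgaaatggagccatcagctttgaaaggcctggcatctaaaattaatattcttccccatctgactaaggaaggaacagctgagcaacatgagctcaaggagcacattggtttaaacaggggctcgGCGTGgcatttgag

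Of the 23 genes beyond the sum, 3 had been moved in the same direction by both losses, and all 3 were lower: Mylk4, Tcap and Otub2. Tcap and Otub2 were chosen after their values were seen. Tcap, which encodes telethonin, a cap of titin at the Z-disc, was at 366, 352, 435 and 450 CPM in double knockouts, 809, 778, 817 and 826 in Bmal1 knockouts and 1129, 1471, 1206 and 1300 in Vhl knockouts. Its controls were at 1764 CPM or above, and no group of knockouts overlapped another. Its departure was −0.41 ± 0.12 (adjusted p = 0.049). Otub2, a deubiquitinase gene, was at 2.96, 3.20, 3.24 and 2.27 CPM in double knockouts, 9.77 to 14.3 in Bmal1 knockouts and 8.79 to 9.54 in Vhl knockouts, with a departure of −0.98 ± 0.29 (adjusted p = 0.047). Both lie close to the threshold: leaving out any 1 of 25 libraries ended the call of Tcap (−0.49 to −0.34 over all 32 omissions), and any 1 of 20 that of Otub2 (−1.08 to −0.84). With 1 pooled control group Tcap was at −0.26 and was not called.

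For 11 of the 23 the sum itself was within 0.2 of 0, so that the double knockout moved where the single effects were small or cancelled. Ldha, lactate dehydrogenase A, the enzyme that makes lactate from pyruvate, was of this kind. It was at 2129, 1847, 2122 and 1990 CPM in double knockouts, 953, 981, 964 and 943 in Bmal1 knockouts and 1908, 2712, 1872 and 2022 in Vhl knockouts. Controls ran from 1100 to 1279 CPM in the double line, 1257 to 1510 in the Bmal1 line and 1383 to 1522 in the Vhl line. All double and Vhl knockouts lay above, and all Bmal1 knockouts below, every control. Bmal1 loss lowered Ldha (−0.52 ± 0.07) and Vhl loss raised it (0.55 ± 0.07), and with both lost it was as high as with Vhl loss (0.73 ± 0.07), a departure of 0.70 ± 0.12 (adjusted p = 0.00017). The double knockout effect did not pass against the Vhl knockout effect (difference 0.18, adjusted p = 0.28). Of the 23 genes beyond the sum, the double knockout was called different from both single knockouts in 16. In the other 7, Ldha among them, it was called different from the Bmal1 knockout only.

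Bsg, basigin, the chaperone that brings lactate transporters to the membrane, rose further in the double knockout than in the Vhl knockout. It was at 984, 720, 731 and 655 CPM in double knockouts, 515, 584, 564 and 498 in Vhl knockouts and 240, 222, 218 and 197 in Bmal1 knockouts, with controls from 199 to 245 CPM. Bmal1 loss alone left it at −0.08 ± 0.07 (adjusted p = 0.58), Vhl loss raised it by 1.28 ± 0.07 and both by 1.84 ± 0.07, a departure of 0.63 ± 0.13 (adjusted p = 0.0024). Ttll7, a tubulin glutamylase gene, rose with Bmal1 loss (438, 445, 438 and 456 CPM, effect 1.04 ± 0.07) and fell with Vhl loss (168, 175, 154 and 132 CPM, −0.58 ± 0.08). In double knockouts it stood at 586, 665, 670 and 640 CPM, above every Bmal1 knockout, with controls at 185 to 255 CPM (departure 1.01 ± 0.13, adjusted p = 6.6e-07). Vhl loss therefore went with lower Ttll7 when Bmal1 was present and with higher Ttll7 when it was absent. H19, a long noncoding RNA gene of growing muscle, fell with Bmal1 loss (119, 133, 102 and 113 CPM) and rose with Vhl loss (830, 404, 773 and 1132). It was at 1371, 1084, 930 and 1053 CPM in double knockouts and 204 to 346 in controls (departure 1.45 ± 0.29, adjusted p = 0.0037). Its double knockout effect did not pass against the Vhl knockout effect (difference 0.28, adjusted p = 0.53).

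**Figure D2:**
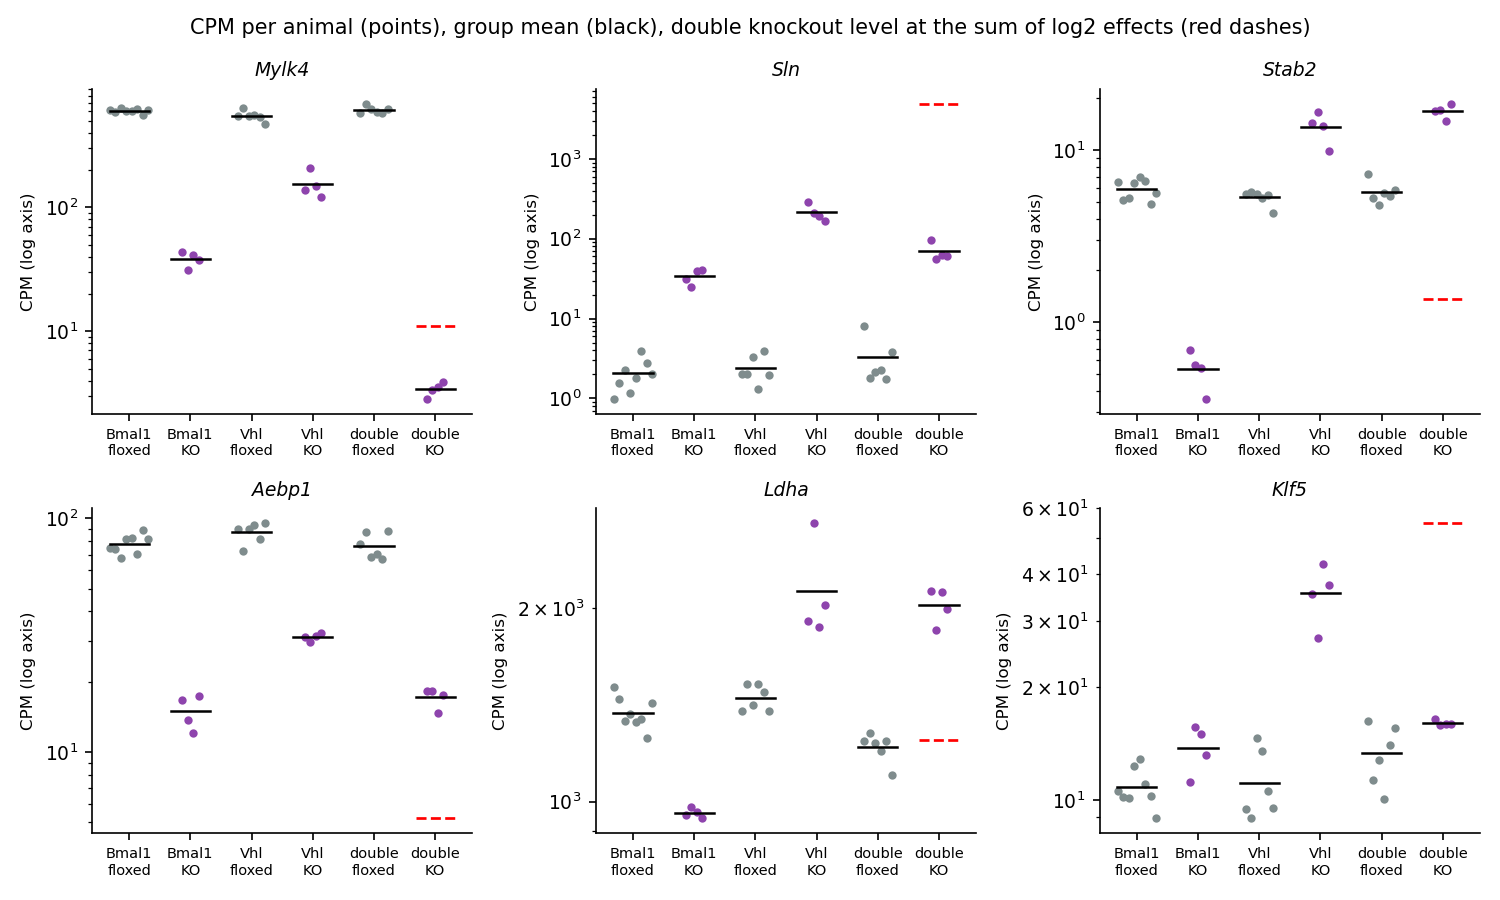
CPM on a log axis for each animal (points; grey controls, purple knockouts), with group means in black and, in red dashes, the level at which the double knockout would meet the sum of log2 effects. Mylk4 lies below its red line and Ldha, Stab2 and Aebp1 above theirs, while Sln and Klf5 stay below theirs.

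Additivity depends on the scale. In CPM rather than log2, the departure kept its sign in 492 of the 496 genes. In 60 of the 496 the single effects added in CPM to a level under 0, so that their CPM departure had to be positive. The 4 that changed sign were all beyond the sum: Mylk4, Tcap, Otub2 and Ak4. The falls of Mylk4 in the single knockouts, added in CPM, exceed its control level (the sum would be −343 CPM), so its CPM departure was 347 ± 34.1 although the fold fall was more than multiplicative. Ak4, an adenylate kinase gene of hypoxia also chosen after its values were seen, was at 165, 172, 169 and 158 CPM in double knockouts and 184, 172, 169 and 170 in Vhl knockouts, with 1.14 to 3.261 CPM in controls. It fell in Bmal1 knockouts to 1.18, 0.721, 0.742 and 1.26 CPM, so its log2 departure of 1.17 ± 0.32 (adjusted p = 0.025) rested on a fall between low levels, and in CPM it was −6.79 ± 4.61. The call of Ak4 was lost without Bmal1 knockout 7 (1.05) or 8 (1.04), and with the Bmal1 effect of batch 1 (0.67).

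Among genes opposite to the sum, Stab2 had the smallest p of all genes. Stab2 encodes stabilin-2, a scavenger receptor for hyaluronan best known from sinusoidal endothelium (chromosome 10, 86841198 to 87008025). Bmal1 knockouts held 0.686, 0.561, 0.539 and 0.359 CPM, below all controls, which ran from 4.33 to 7.26 CPM. Vhl knockouts held 14.3, 16.8, 13.8 and 9.94 CPM and double knockouts 16.9, 17.0, 14.8 and 18.6, above all controls. The fall with Bmal1 loss (−3.45 ± 0.21) was thus absent when Vhl was lost too (1.56 ± 0.13), and the departure was 3.63 ± 0.30 (adjusted p = 5.4e-12). Endothelial markers as a group rose in Vhl and double knockouts alike: their summed level was 1049 to 1136 and 1179 to 1500 CPM there, against 568 to 987 in controls and 607 to 690 in Bmal1 knockouts. Much of this sum is Fabp4, 1 of the 15 markers and also an adipocyte marker. Fabp4 was at 443 to 601 CPM in Vhl knockouts, 627 to 910 in double knockouts and 276 to 702 in controls. None of the 15 departed from the sum, and their part in the level of Stab2 was not tested.

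Igfbp5, Kcnf1 and Car3 also fell with Bmal1 loss alone. With both losses Car3 fell less, Igfbp5 lay around the control range and Kcnf1 lay above it. Igfbp5, a binding protein of insulin-like growth factors, was at 97.0, 123, 104 and 108 CPM in Bmal1 knockouts, 326, 359, 212 and 316 in double knockouts and 248.7 to 350 in all controls. In Vhl knockouts it was at 363, 425, 367 and 365 CPM, above every control. Its departure was 1.31 ± 0.17 (adjusted p = 4.1e-06), and 0.78 (adjusted p = 0.057) with the Bmal1 effect taken from batch 1. Kcnf1, a modifier subunit of potassium channels, was at 0.628 to 0.809 CPM in Bmal1 knockouts and 8.22 to 13.3 CPM in double knockouts, with 1.34 to 5.18 CPM in controls (departure 2.45 ± 0.48, adjusted p = 0.0017). Its Vhl knockouts held 10.9, 14.4, 7.94 and 10.1 CPM, a range that holds all double knockouts. Car3, a carbonic anhydrase abundant in slow fibres and fat, fell to 242, 412, 308 and 343 CPM in Bmal1 knockouts. It was at 2043, 1467, 1067 and 1425 CPM in double knockouts and 2845 to 3654 CPM in Vhl knockouts, with controls at 1951 to 2799 CPM. Its double knockout effect of −0.67 ± 0.13 was called, so Car3 was short of the sum (departure 1.72 ± 0.23, adjusted p = 2.6e-05).

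Nqo1 and Atp1b2 rose in the double knockout, although Vhl loss alone lowered both and Bmal1 loss alone was not called for either. Nqo1, a quinone reductase and classic target of NRF2, was at 37.8, 27.7, 26.5 and 27.5 CPM in double knockouts. It was at 15.6, 14.1, 15.98 and 14.1 CPM in Bmal1 knockouts, 11.3, 10.47, 11.0 and 11.2 in Vhl knockouts and 11.2 to 18.7 in controls, so only the double knockouts lay above the controls. Its departure was 1.32 ± 0.19 (adjusted p = 1.5e-05). Beside 2.15% of all genes higher and 1.64% lower, 2 of the 19 glutathione and NRF2 target genes tested were higher than the sum (Nqo1 and Gpx3) and 2 lower (Gpx1 and Mt1, the latter not called when any 1 of 21 libraries was left out). Atp1b2, a sodium pump subunit, was at 112, 89.5, 114 and 93.4 CPM in double knockouts, 42.7, 58.4, 38.8 and 54.3 in Vhl knockouts and 79.6 to 82.1 in Bmal1 knockouts, with 68.4 to 91.7 in controls, which the double knockouts overlapped (departure 1.11 ± 0.15, adjusted p = 3.3e-06). S100a1, a calcium sensor of striated muscle, rose with each loss (102 to 120 CPM with Bmal1 loss and 93.5 to 143 with Vhl loss, where animal 2 was the lowest). In double knockouts it was at 75.5, 79.4, 73.0 and 87.6 CPM, within or just below the control range of 75.9 to 105 CPM (departure −0.90 ± 0.14, adjusted p = 5.5e-05).

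Among genes short of the sum, Sln had the lowest departure of all named genes. Sln encodes sarcolipin, a small protein that uncouples the calcium pump SERCA (chromosome 9, 53850164 to 53854560). Controls held 0.992 to 8.06 CPM, Bmal1 knockouts 31.7, 24.8, 39.5 and 40.5, and Vhl knockouts 292, 209, 190 and 168. Double knockouts held 97.3, 55.5, 62.8 and 61.4 CPM, above every Bmal1 knockout and below every Vhl knockout. The effects were 4.05 ± 0.30, 6.49 ± 0.32 and 4.38 ± 0.30, a departure of −6.15 ± 0.58 (adjusted p = 2.3e-07). The double knockout effect was lower than the Vhl knockout effect (difference −2.11, adjusted p = 0.0055), and did not pass against the Bmal1 knockout effect (0.34, adjusted p = 0.70). Additivity in log2 would have asked for 4898 CPM and additivity in CPM for 248, and the double knockouts averaged 69.3 CPM.

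Klf5, a zinc finger factor of muscle and fat metabolism, shows a Vhl effect that was weak without Bmal1. Vhl knockouts held 35.5, 27.0, 42.5 and 37.3 CPM, above every other animal. Double knockouts held 16.4, 15.9, 15.96 and 15.96 CPM, Bmal1 knockouts 11.2, 15.6, 15.0 and 13.2, and controls 8.95 to 16.2. Vhl loss raised Klf5 by 1.69 ± 0.13, and the double knockout effect of 0.27 ± 0.13 did not pass (adjusted p = 0.098), a departure of −1.77 ± 0.22 (adjusted p = 7.0e-07).

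Cpne2, Gamt and Dkk3 moved by like amounts in all 3 knockouts. Cpne2, a calcium-dependent membrane-binding protein, was at 49.8, 54.7, 61.3 and 39.6 CPM in double knockouts, 50.05 to 59.9 in Bmal1 knockouts, 34.6 to 46.3 in Vhl knockouts and 12.1 to 22.4 in controls (departure −1.68 ± 0.21, adjusted p = 2.2e-06). Gamt, the enzyme of the last step of creatine synthesis, was at 25.4, 30.5, 30.5 and 33.4 CPM in double knockouts, 21.2 to 29.3 in Bmal1 knockouts, 29.8 to 34.2 in Vhl knockouts and 8.44 to 14.9 in controls (−1.42 ± 0.18, adjusted p = 6.6e-07). All knockouts of both genes lay above all controls, and the double knockouts overlapped each single knockout group, while the single knockout groups did not overlap each other. Dkk3, a secreted protein of the Dickkopf family, was at 0.548, 1.38, 1.70 and 0.548 CPM in double knockouts and at or below 1.32 CPM in both single knockouts, with 4.93 to 12.3 in controls (3.82 ± 0.51, adjusted p = 2.2e-06). The sum of log2 effects would put Dkk3 at 0.0772 CPM. That is under 0.328 CPM, the level of 3 counts in the smallest double knockout library, so a fall to the sum could not have been measured. This holds for 15 of the 496 genes.

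Aebp1, a matrix protein that promotes collagen assembly, fell in all 3 knockouts. It was at 18.2, 18.4, 14.7 and 17.5 CPM in double knockouts, 16.6, 13.7, 12.1 and 17.3 in Bmal1 knockouts, 31.2, 29.6, 31.5 and 32.2 in Vhl knockouts and 66.8 to 95.6 in controls. The double knockouts overlapped the Bmal1 knockouts and lay below the Vhl knockouts (departure 1.72 ± 0.17, adjusted p = 6.9e-10). Chac1, a glutathione-degrading enzyme of the integrated stress response, was at 17.0, 29.8, 26.7 and 25.7 CPM in double knockouts, 20.5, 8.10, 5.53 and 3.86 in Bmal1 knockouts and 28.4, 56.4, 35.4 and 13.1 in Vhl knockouts, with controls at 31.3 to 95.2. Its departure was 2.88 ± 0.58 (adjusted p = 0.0043). Gpx3, a secreted glutathione peroxidase, was at 103, 103, 72.1 and 81.2 CPM in double knockouts, 69.8, 67.8, 70.0 and 81.4 in Bmal1 knockouts and 87.0, 69.9, 99.0 and 78.5 in Vhl knockouts. Its controls were lower in the double line (88.6 to 146 CPM) than in the Bmal1 line (127 to 157) or the Vhl line (135 to 178), and the departure was 1.48 ± 0.21 (adjusted p = 5.5e-05), or 1.01 with 1 pooled control group.

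**Figure D3:**
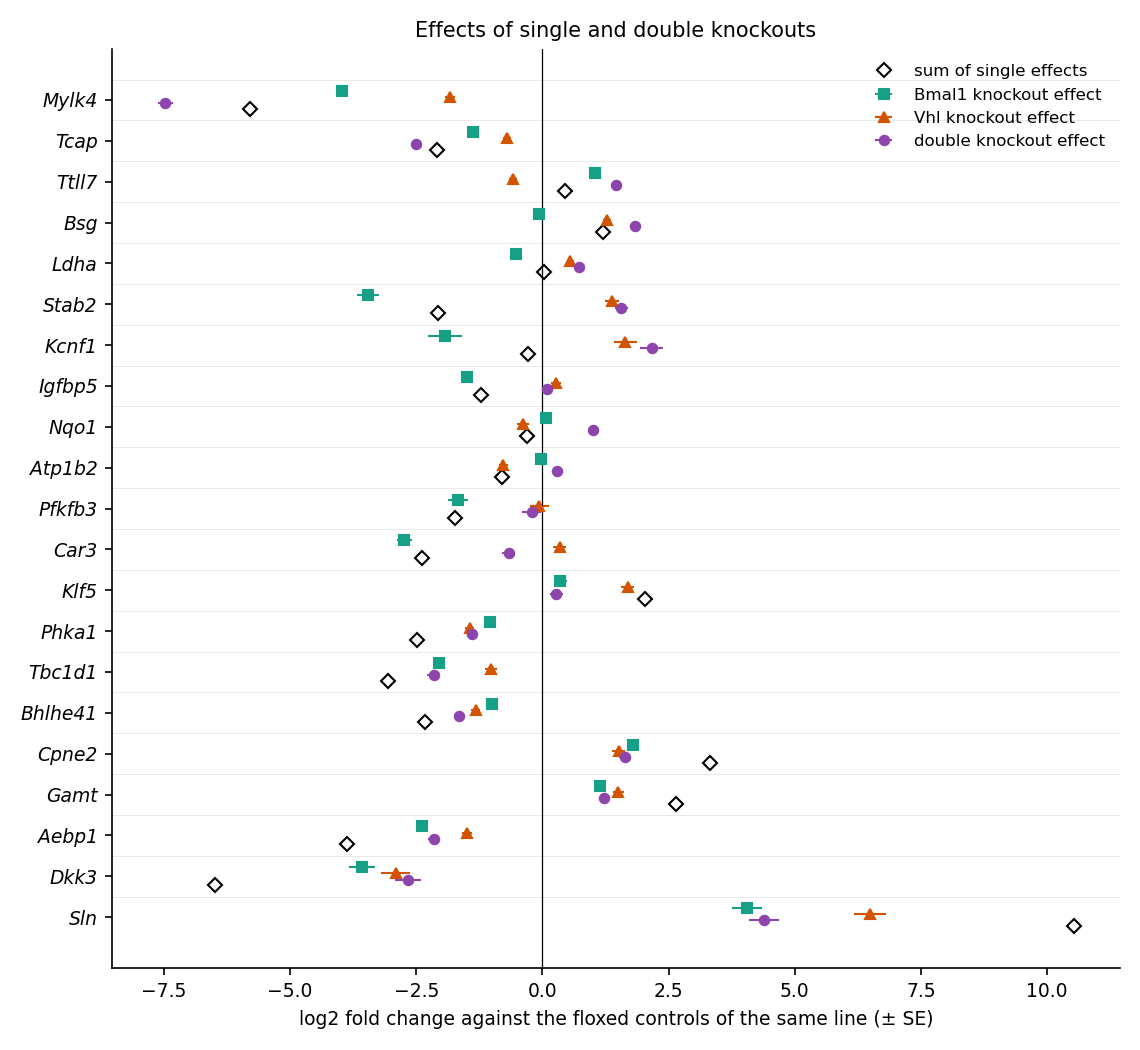
Log2 fold changes (horizontal axis) of selected genes in the Bmal1 (squares), Vhl (triangles) and double knockouts (circles), with bars of ± 1 SE, and the sum of the single effects (open diamonds). In Cpne2 and Gamt the circle lies with the square and the triangle and short of the diamond; in Mylk4 and Tcap it lies past the diamond.

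Of 22 glycolysis and lactate genes tested, beside 3.79% of all genes called, 2 were higher than the sum (Ldha and Pfkfb3) and 1 lower (Slc16a1), with a median departure of 0.16. Pfkfb3, whose product makes fructose 2,6-bisphosphate, the activator of phosphofructokinase, lies on chromosome 2 from 11471433 to 11554077. It was at 160, 180, 168 and 173 CPM in double knockouts, 81.1, 55.1, 43.9 and 42.3 in Bmal1 knockouts and 213, 286, 192 and 102 in Vhl knockouts, with controls at 145 to 244. All Bmal1 knockouts lay below all controls, as did Vhl knockout 4. The Bmal1 effect was −1.67 ± 0.20, Vhl loss alone left it at −0.06 ± 0.19, and both left it at −0.21 ± 0.19, a departure of 1.52 ± 0.33 (adjusted p = 0.0075). With the Bmal1 effect of batch 1 it was 0.80 (adjusted p = 0.28), and with the mean of both batches 1.15 (adjusted p = 0.056). Slc16a1, the lactate transporter MCT1, rose with Vhl loss (0.80 ± 0.09) and fell with both (−0.38 ± 0.09; departure −0.68 ± 0.16, adjusted p = 0.0071). It was not called with the Bmal1 effect of batch 1 (−0.56) or of both batches (−0.63). Of the list, 6 genes were higher and 1 lower without animal 2 of the Vhl knockouts (beside 7.24% of all genes called), and 4 and 1 by DESeq2.

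The promoters of Ldha and Pfkfb3 are shown because both genes fell with Bmal1 loss only while Vhl was present. That of Bhlhe41 is shown because it was the 1 gene of the clock lists with a departure in the main test. Each is the 250 bases before a RefSeq start (GRCm38.p6), read 5′ to 3′, with motif letters in capitals on either strand: CACGTG for the E-box, and ACGTG or else GCGTG for the core of the HIF response element (CACGT is the reverse of ACGTG). The first of the windows of Ldha (plus strand, chr7:46845554-46845803) held 2 CACGTG, which begin 145 and 48 bases before the start, and 1 CACGT outside them.
Ldha: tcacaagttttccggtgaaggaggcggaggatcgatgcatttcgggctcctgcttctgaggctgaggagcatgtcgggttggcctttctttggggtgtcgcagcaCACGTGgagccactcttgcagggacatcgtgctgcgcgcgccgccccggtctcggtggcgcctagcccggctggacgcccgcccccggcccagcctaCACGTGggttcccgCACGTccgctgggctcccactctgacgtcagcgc
Pfkfb3 has 2 such windows on the minus strand, at chr2:11553930-11554179 with 1 ACGTG and at chr2:11502091-11502340 with 1 CACGTG and 1 GCGTG.
Pfkfb3, first window: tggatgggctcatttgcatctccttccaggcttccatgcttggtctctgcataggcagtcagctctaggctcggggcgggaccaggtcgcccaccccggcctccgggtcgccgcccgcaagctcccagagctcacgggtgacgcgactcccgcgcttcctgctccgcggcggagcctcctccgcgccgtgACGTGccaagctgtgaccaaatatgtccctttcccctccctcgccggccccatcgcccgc
Pfkfb3, second window: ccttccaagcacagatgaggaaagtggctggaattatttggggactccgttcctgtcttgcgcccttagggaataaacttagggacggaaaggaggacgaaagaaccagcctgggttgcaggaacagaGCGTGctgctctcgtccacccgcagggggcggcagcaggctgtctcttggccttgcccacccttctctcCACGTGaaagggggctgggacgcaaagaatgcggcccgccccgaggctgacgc
Bhlhe41 (minus strand, chr6:145865421-145865670) held 1 CACGTG and 2 GCGTG.
Bhlhe41: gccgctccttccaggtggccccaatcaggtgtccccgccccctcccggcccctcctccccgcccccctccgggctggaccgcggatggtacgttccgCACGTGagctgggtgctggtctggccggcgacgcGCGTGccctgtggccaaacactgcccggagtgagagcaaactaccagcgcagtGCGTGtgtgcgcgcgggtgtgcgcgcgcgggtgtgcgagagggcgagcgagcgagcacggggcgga
Such letters are common. CACGTG was in a window of 9.65% of the 373 genes with a departure that RefSeq windows matched and of 10.0% of the 9522 matched genes tested. ACGTG outside CACGTG was in 16.6% and 16.9%, and GCGTG in 43.4% and 49.8%. A match describes the letters only.

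Glycogen genes held 5 of 17 members higher than the sum and none lower by edgeR, beside 2.15% of all genes higher. At an unadjusted p under 0.05 these counts were 8 and 0, and by DESeq2 6 and 0. The 5 were Phka1 and Phkg1 of phosphorylase kinase, Ppp1r3a and Ppp1r3c, which target protein phosphatase to glycogen, and Pgm2, a phosphoglucomutase. Phka1 was at 130, 128, 172 and 165 CPM in double knockouts, 191, 164, 190 and 179 in Bmal1 knockouts and 115, 170, 110 and 112 in Vhl knockouts, with 322 to 425 in controls. All knockouts lay below all controls and the 3 knockout groups overlapped (departure 1.09 ± 0.15, adjusted p = 1.2e-05). Phkg1 was called no longer with 1 pooled control group (0.19) or with the Bmal1 effect of batch 1 (0.53), and Pgm2 no longer without scaling (0.49). Of 22 insulin signalling and glucose uptake genes, 1 departed: Tbc1d1, the Rab GTPase-activating protein that holds back glucose transporter vesicles. Tbc1d1 was at 11.1, 10.7, 10.0 and 11.4 CPM in double knockouts, 10.4, 10.7, 12.5 and 7.09 in Bmal1 knockouts and 17.5, 28.0, 18.1 and 21.3 in Vhl knockouts, against 36.1 to 54.1 in controls (0.90 ± 0.20, adjusted p = 0.0049). The double knockouts were within the range of the Bmal1 knockouts and below all Vhl knockouts.

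Most clock outputs and HIF targets did not pass the test for a departure, where 3.79% of all genes passed. Of 13 genes that BMAL1 drives through E-boxes, 12 fell with Bmal1 loss and 10 in the double knockout, and 1 departed from the sum. That gene was Bhlhe41, a clock repressor that HIF also induces in many cells, at 17.1, 19.2, 15.3 and 14.6 CPM in double knockouts, 26.5 to 33.1 in Bmal1 knockouts, 17.6 to 21.8 in Vhl knockouts and 46.4 to 64.8 in controls. Its departure was 0.66 ± 0.15 (adjusted p = 0.0049), and 0.57 (adjusted p = 0.053) without scaling or 0.65 (adjusted p = 0.090) with the Bmal1 effect of batch 1. Dbp and Nr1d1, chosen after their values were seen, had departures of 0.15 (adjusted p = 0.86) and 0.20 (adjusted p = 0.56) beside double knockout effects of −2.82 and −2.01. These genes do not stand for the whole list. At an unadjusted p under 0.05, 2 of the 13 were higher than the sum and 0 lower. In a separate list of 5 core clock activators and related genes, edgeR called none. In that list 1 was lower than the sum at an unadjusted p under 0.05. DESeq2 called 1 lower, as did edgeR without scaling. Per3, another clock gene, was at 5.92, 1.38, 3.93 and 3.44 CPM in double knockouts and 1.89 to 2.76 CPM in Bmal1 knockouts. Of 37 HIF-induced genes, 24 rose with Vhl loss and 25 in the double knockout, and 3 were higher than the sum (Ldha, Pfkfb3 and Mxi1) and 1 lower (P4ha1, −0.52, not called when any 1 of 20 libraries was left out). Mxi1, a MYC antagonist, had a departure of 0.64 ± 0.13 (adjusted p = 0.0028), and 0.48 with the Bmal1 effect of batch 1, not called. The median departure was 0.20 for the clock outputs and 0.11 for the HIF-induced genes. The clock outputs had a median sum of −2.17 and a median double knockout effect of −1.44 (the median of the departures is not the difference of these medians).

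**Figure D4:**
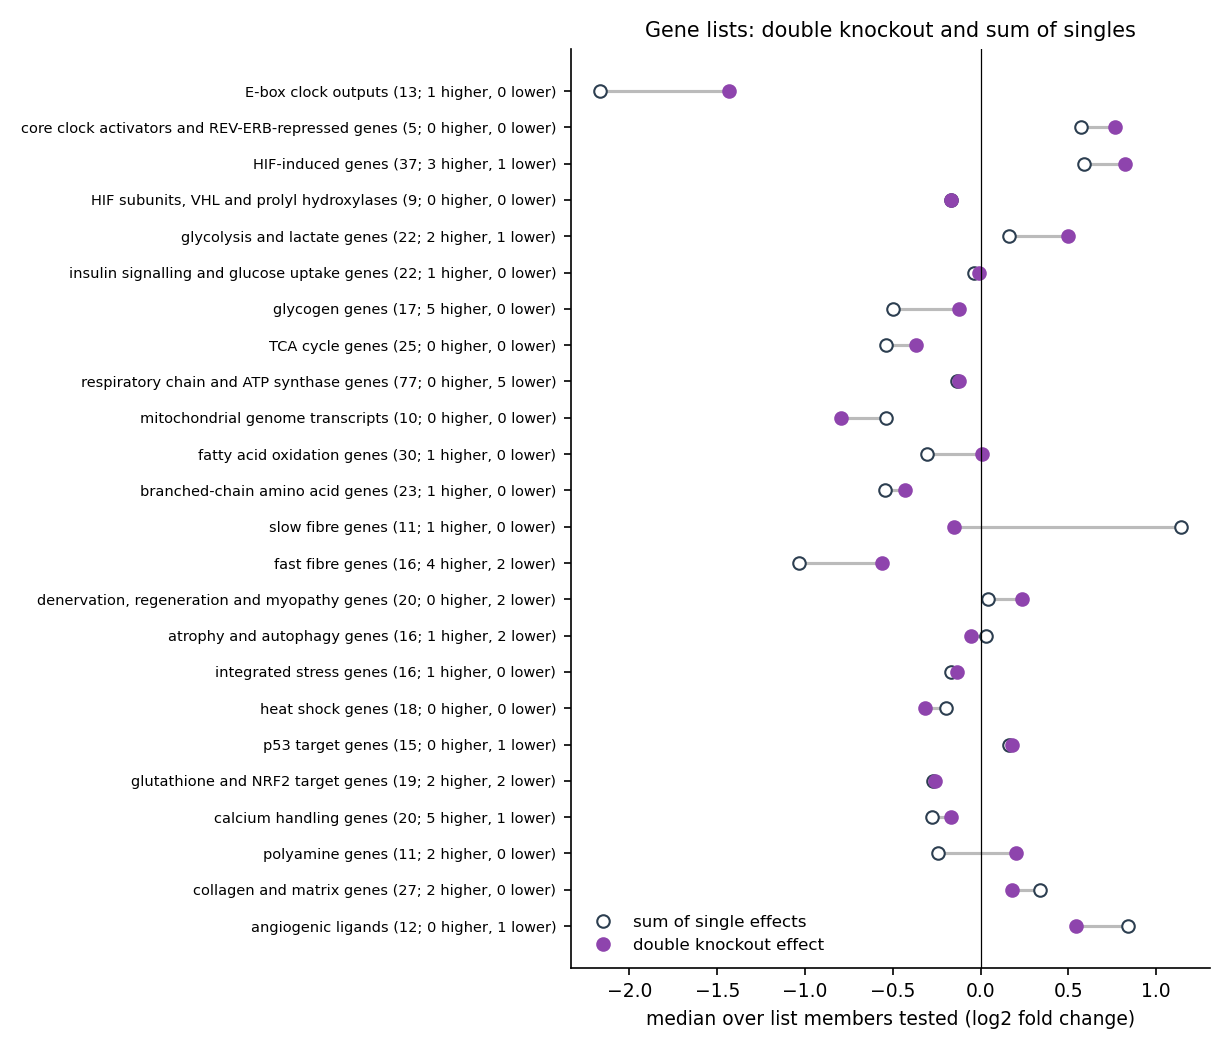
Median log2 fold change over the tested members of 24 gene lists for the sum of single effects (open circles) and the double knockout (filled circles), with the number tested and the members called higher or lower than the sum in brackets. The circles of slow fibre genes and E-box clock outputs are the farthest apart.

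As a list, respiratory chain genes rose with Bmal1 loss (median 0.23) and fell with Vhl loss (median −0.36). Of 77 respiratory chain and ATP synthase genes, 49 rose with Bmal1 loss and 62 fell with Vhl loss; in the double knockout 4 were higher and 30 lower. By edgeR none was higher than the sum (7 at an unadjusted p under 0.05, 2 by DESeq2) and 5 were lower, beside 1.64% of all genes lower: Uqcrh, Uqcr11, Ndufa7, Cox4i1 and Cox7a2, with departures of −0.43 to −0.39. Uqcrh, a subunit of complex III, was at 500, 505, 488 and 510 CPM in double knockouts and 614, 589, 619 and 581 in Bmal1 knockouts, with 441 to 568 in controls, so its rise with Bmal1 loss was not seen when Vhl was lost too (−0.42 ± 0.10, adjusted p = 0.011). Its Vhl knockouts held 521, 457, 533 and 529 CPM, all but animal 2 above the Vhl line controls at 461 to 492 CPM. The Vhl knockouts of Cox4i1, Ndufa7 and Cox7a2 overlapped their Vhl line controls. These genes are therefore no clear examples of a fall with Vhl loss. Cox4i1 was not called without Bmal1 knockout 7 (−0.37) or Vhl knockout 1 (−0.33). Of 25 TCA cycle genes, 24 fell with Vhl loss and 18 in the double knockout, and none departed by edgeR (6 higher and 2 lower at an unadjusted p under 0.05). DESeq2 called 3 higher and 0 lower, and edgeR without animal 2 of the Vhl knockouts 4 higher. Without that animal the respiratory chain list held 2 higher and 10 lower, and 7.24% of all genes were called.

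Some fast fibre and calcium handling genes departed, in both directions, beside 2.15% of all genes higher and 1.64% lower. Of 16 fast fibre genes, 14 fell with Vhl loss and 14 with both, and 4 were higher than the sum (Myh4, Tnnt3, Casq1 and Mylk2) and 2 lower (Mylk4 and Mylpf), or 6 and 2 without animal 2 of the Vhl knockouts. Myh4, the fast IIb myosin heavy chain, was at 28230, 32000, 28880 and 32390 CPM in double knockouts and 19240, 23480, 18910 and 19400 in Vhl knockouts, with 33336 to 44552 in controls (0.60 ± 0.11, adjusted p = 0.00057). Mylpf, the fast regulatory light chain, rose with Bmal1 loss (17070, 16970, 18270 and 17230 CPM). In double knockouts it was at 11920, 11200, 12240 and 10230 CPM, inside the control range of 9376 to 12823 (departure −0.63 ± 0.12, adjusted p = 0.0014). Of 20 calcium handling genes, 5 were higher than the sum and 1 lower, Sln, with a median departure of 0.00. Without animal 2 of the Vhl knockouts 7 were higher and 4 lower. For both lists the share of all genes called without that animal was 7.24%. Among the 5 were Ryr1, the calcium release channel, Casq1 and Trdn of its store complex, and Jph1, which joins the tubule to the store. Ryr1 was not called with the Bmal1 effect of batch 1 (0.49), nor Jph1 with that effect (0.44) or without scaling (0.39).

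In the slow fibre list the number of calls changed most with 1 animal, relative to its size. Of 11 tested, 1 was higher than the sum (Car3) and none lower by edgeR, with a median departure of −1.40. At an unadjusted p under 0.05 the number lower was 8, by DESeq2 4, and without animal 2 of the Vhl knockouts 9 with a median of −1.74. Of all genes, 3.79% were called with all animals and 7.24% without that animal. Tnni1, slow troponin I, was at 237, 24.0, 59.9 and 237 CPM in Vhl knockouts 1 to 4, so 2 animals were far above and 1 below the controls at 34.0 to 83.3 CPM. Double knockouts held 49.1, 60.9, 42.9 and 56.7 CPM and Bmal1 knockouts 91.4, 103, 92.1 and 84.0. Its departure was −2.07 ± 0.62 (adjusted p = 0.062) with all animals, and DESeq2 called it (adjusted p = 0.018). It was called by edgeR without Vhl knockout 2 (−2.43, adjusted p = 0.0014) or 3 (−2.32, adjusted p = 0.038), and it was −1.68 without animal 1 and −1.70 without animal 4. The plot of slow fibre genes by animal shows the same spread for the summed level.

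**Figure D5:**
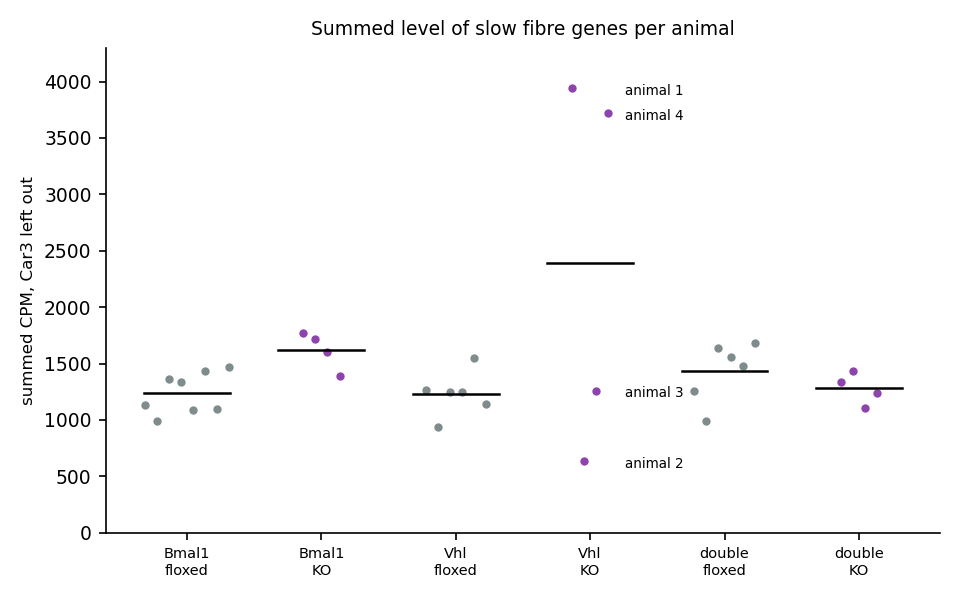
Summed CPM of the slow fibre genes other than Car3 for each animal (points; grey controls, purple knockouts), with group means in black. Vhl knockouts range from 635 to 3940 CPM, while the double knockouts lie between 1110 and 1430 CPM.

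Among markers of other cells, 2 of 6 tendon genes (Fmod and Thbs4) were higher than the sum, beside 2.15% of all genes. Both lost the call with 1 pooled control group (−0.32 and 0.13). None of the 15 endothelial, 10 pericyte and smooth muscle, 12 macrophage, 9 red cell or 7 satellite cell genes tested was called by edgeR or DESeq2. At an unadjusted p under 0.05, 1 endothelial, 1 red cell and 2 satellite cell genes departed. With 3.79% of all genes called by edgeR, lists of this size can hold no called gene without differing from all genes. Vhl loss had raised 13 of the endothelial, 6 of the pericyte, 7 of the macrophage and 8 of the red cell genes. Without animal 2 of the Vhl knockouts 1 endothelial, 1 red cell and 1 satellite cell gene departed, beside 7.24% of all genes. Red cell genes summed to 5877 to 7084 CPM in Vhl knockouts and 3196 to 5334 in double knockouts, against 624 to 1617 in controls and 507 to 945 in Bmal1 knockouts. The 8 defining muscle fibre genes summed to 83710 to 92120 CPM in double knockouts, 70000 to 74820 in Vhl knockouts, 105100 to 109200 in Bmal1 knockouts and 96370 to 127100 in controls. Of the 8, 2 (Myh4 and Neb) were higher than the sum, beside 2.15% of all genes. Keratinocyte genes, a sign of skin in the sample, summed to 5.61 to 62.7 CPM in double knockouts (median 6.01), 4.52 to 97.5 in Bmal1 knockouts (median 19.2), 5.47 to 24.0 in Vhl knockouts (median 6.04) and 3.49 to 29.4 in controls, and none of the 6 was called by edgeR or DESeq2 or had an unadjusted p under 0.05. The part of these markers in the departures of other genes was not tested. Cdkn1a, the cell cycle inhibitor p21, was at 886, 907, 652 and 779 CPM in double knockouts, 262, 414, 336 and 353 in Bmal1 knockouts and 186, 103, 190 and 244 in Vhl knockouts, with 20.7 to 55.1 in controls. It was highest in the double knockouts, yet its log2 departure was −1.16 ± 0.39 and did not pass (adjusted p = 0.098), though it did without animal 2 of the Vhl knockouts (−1.36, adjusted p = 0.020). In CPM its rise with both losses was larger than the single rises added, so the sign of its departure depends on the scale.

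Genes called the same way in both single knockouts mostly lay short of the sum, which choosing them by these single effects favours. The 264 genes called higher in both single knockouts had a median sum of 1.14 and a median double knockout effect of 0.58, and 80 of them (30.3%) were lower than the sum. The 470 called lower in both had a median sum of −1.15 and a median double knockout effect of −0.80, with 123 higher than the sum and 3 lower. The single effects here were chosen for their size in the same animals, so their sums are biased away from 0. A list free of that choice for Bmal1 came from batch 1, other animals in which 9% of genes were called for Bmal1 loss on high-fat diet. The 485 of these called higher and tested here had a median Bmal1 effect of 0.41, a median sum of 0.55 and a median double knockout effect of 0.36, with 6 higher than the sum and 62 lower. The 661 called lower had medians of −0.46, −0.85 and −0.62, with 118 higher than the sum and 6 lower. A departure in either direction was called in 14% and 18.8% of these 2 lists. Over all genes 2.15% were higher than the sum and 1.64% lower, together 3.79%. The median departure over all genes was 0.01, against −0.19 and 0.24 for these 2 lists.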

How the data were processed

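RNA of gastrocnemius muscle was extracted with TRIzol and made into 3′ libraries with the Lexogen QuantSeq FWD kit, per the labels' protocols, so a gene's count does not depend on its length. The authors deposited raw counts per gene and, in a separate table, normalized counts, a signal on a common library-size scale; per the submitters' processing notes the tools were FastQC 0.11.4, STAR 2.6.0, HTSeq and edgeR 3.26.8, with mm10 and GRCm38.p4 named as builds. No source used here states a version of HTSeq.

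The main test used the raw counts of the 32 batch 2 libraries in 1 fit of 6 group means with edgeR 4.0.16 in R 4.3.3 (filterByExpr, TMM scaling, robust quasi-likelihood F-test), with Benjamini-Hochberg adjustment over all 13093 genes and a threshold of 0.05. Standard errors are the log2 effect divided by the square root of F. The normalized counts served only an alternative with limma 3.58.1 on log2(value + 1), and DESeq2 1.42.0 served as another. Other alternatives were other scalings and filters, no robust option, 1 pooled control group, the Bmal1 effect of batch 1 or of both batches, a threshold of 0.01, a replicate block and each animal left out. The fit was tested on simulated data. Library totals of 6.95 to 14.7 M counts limit what can be seen of low genes.

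Genes named were Arntl and Vhl, the 12 highest and 12 lowest departures with a mean log2 CPM of at least 2, the 5 smallest p of each class, and up to 4 genes of each of 37 gene lists. Tcap, Otub2, Ak4, Dbp, Nr1d1 and a few list members given by name only were chosen after their values were seen. The comparison and the lists were chosen with earlier results of these data known. The table holds 27 symbols turned into dates and 2 duplicated symbols, none of which is named. Animals are numbered as in the sample titles. The deposited counts label Bmal1 knockouts 7, 8 and 9 of batch 2 as 9, 10 and 11. 1 result is not reported here. Promoters are RefSeq windows, matched by symbol for 124 of 170 named genes. Animals with the same title number in a knockout group and its own controls showed no sign of deviating together, so the main fit has no block. Figures were drawn with Python 3.11.15 and matplotlib 3.10.9.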

Additional observations from a re-analysis of the deposited data

Results flagged for a closer look

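In groups of 4 to 8 animals, 15 of the 204 gene and group combinations examined had 1 animal far from the others of its group, and chance alone flags about 1 in 20 such groups. Animal 2 of the Vhl knockouts was the far one in 5 genes: Igfbp5 (424.7 CPM) and Phka1 (169.8 CPM) and Myh4 (23480 CPM) were high in it, and S100a1 (93.45 CPM) and Uqcrh (457.1 CPM) were low. Ak4 was high in Vhl knockout 1 (184 CPM). Animal 1 of the double knockouts was high in Nqo1 (37.81 CPM) and in Klf5 (16.44 CPM). Bmal1 knockout 9 was high in Gpx3 (81.43 CPM). Among controls of the double line, animal 1 was high in Sln (8.057 CPM), animal 6 was high in Otub2 (28.3 CPM), animal 3 was low in Atp1b2 (74.47 CPM) and animal 4 was low in Cdkn1a (26.93 CPM). Control 12 of the Bmal1 line was high in Gamt (13.05 CPM), and control 6 of the Vhl line was low in Stab2 (4.331 CPM).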

How the results depend on the processing

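Counts of called genes moved with the setting, and the cause was not tested. The main counts were 281 higher and 215 lower than the sum, with 23 beyond, 292 short and 181 opposite. DESeq2 gave 35 beyond. Without scaling beyond library size there were 134 higher, 297 lower and 107 opposite, and 7008 genes called for the double knockout effect instead of 4638. At a threshold of 0.01, which lowers every count by construction, there were 108 higher, 56 lower, 5 beyond, 116 short and 43 opposite. With 1 pooled control group there were 637 higher, 502 lower, 83 beyond, 564 short and 492 opposite, and the departure of Fmod, a tendon gene, turned to −0.32. With the Bmal1 effect of batch 1 alone there were 143 lower, 12 beyond and 106 opposite. With each animal left out in turn the ranges were 178 to 532 higher, 122 to 440 lower, 12 to 43 beyond, 192 to 526 short and 96 to 403 opposite, the highest without Vhl knockout 2 and the lowest without Vhl knockout 3. Leaving out Vhl knockout 1, Bmal1 knockout 7 or control 6 of the double line also lowered the number lower than the sum to 131, 139 and 139 and the number opposite to 116, 119 and 120. Genes beyond the sum numbered 12 to 15 without Bmal1 knockout 6, 7, 8 or 9, Vhl knockout 1, 3 or 4, double knockout 3, or control 12 or 14 of the Bmal1 line, 6 of the Vhl line, and 2 or 6 of the double line. Genes short of the sum outnumbered those beyond it in each of these settings. Choosing genes by their departure favours this order in all of them, so it is no independent check.

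The replicate block gave 152 higher, 73 lower, 7 beyond, 146 short and 72 opposite, and 598 genes called for the Bmal1 effect instead of 1820. Over 10 pairs with the same title number the deviations correlated at −0.227 to 0.112, with 1 pair over 0.1 and 1 sample closest to its own number. The title numbers thus gave no sign of pairing. Pairs by the deposited numbers of the Bmal1 knockouts were not tested, and groups this small cannot exclude pairing.

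DESeq2 called 653 departures, 463 of them among the 496, and limma 474 with 452 shared. The shared number was 351 with 1 pooled control group, 330 with the Bmal1 effect of both batches, 237 with that of batch 1, 188 with the replicate block and 291 without Vhl knockout 3. Of 71 named genes with a departure, 53 stayed called with each animal left out, 28 also under all other settings except the stricter threshold, and 70 kept their sign throughout, Fmod being the exception. Depth limits genes whose sum falls under 0.328 CPM.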

Other observations

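Genes of polyamine synthesis, muscle wasting and matrix also held departures, beside 3.79% of all genes. Of 11 polyamine genes, 2 were higher than the sum, or 3 without animal 2 of the Vhl knockouts (beside 7.24% of all genes called). Amd1, which makes the aminopropyl donor, fell in all 3 knockouts (double −1.13, Bmal1 −1.45, Vhl −0.55) with a departure of 0.87 ± 0.20 (edgeR adjusted p = 0.012). Odc1, ornithine decarboxylase, fell with Bmal1 loss alone (−1.49) and rose with Vhl loss alone (0.83), with a departure of 0.91 ± 0.26 (edgeR adjusted p = 0.041) that was not called when any 1 of 17 animals was left out. Amd1 was not called with the Bmal1 effect of batch 1 (1.01).

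Of 16 atrophy and autophagy genes, 1 was higher and 2 were lower than the sum. Fbxo32, the muscle ubiquitin ligase atrogin-1, fell with Bmal1 loss alone (−0.85), was at −0.19 with both lost and had a departure of 0.96 ± 0.22 (edgeR adjusted p = 0.010), or 0.62 and not called with the Bmal1 effect of batch 1. Map1lc3a, an autophagosome protein, rose with Vhl loss alone (0.42) and was at −0.16 with both lost (departure −0.44 ± 0.12, edgeR adjusted p = 0.020), and was not called without Bmal1 knockout 8 or Vhl knockout 3 (−0.53 to −0.40 over all omissions). Runx1, a factor induced by denervation, rose by 1.36 with Vhl loss and by 0.50 with both (departure −1.16 ± 0.30, edgeR adjusted p = 0.018), and was not called without Vhl knockout 1 or with 1 pooled control group (−0.68). Eda2r, a death receptor that p53 induces, rose by 0.90 with Bmal1 loss and 0.34 with Vhl loss and was at 0.20 with both (departure −1.05 ± 0.22, edgeR adjusted p = 0.0026), or −0.49 and not called with 1 pooled control group. Of 27 collagen and matrix genes, 2 were higher than the sum (Aebp1 and Thbs4). Thbs4, a matrix thrombospondin of muscle and tendon, had a departure of 0.97 ± 0.16 (edgeR adjusted p = 0.00011) that fell to 0.13 with 1 pooled control group and was then not called.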
